A study of Drosophila melanogaster with 24 samples.

Results

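The *Cpr* genes of *Drosophila melanogaster* encode cuticle proteins, and their levels were followed here through 6 groups of whole adult flies from a rotenone model of Parkinson's disease (PD) with fecal microbiota transplantation (FMT). A gene was taken as a member when its FlyBase symbol starts with Cpr followed by a digit and when it had at least 10 counts summed over 18 RNA-seq libraries. The deposited count table holds 70 genes with such a symbol, and 58 of them met the minimum. The gene named *Cpr* without a digit, which encodes a cytochrome P450 reductase and not a cuticle protein, was left out by the rule.

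All flies were of the w1118 strain, fed a yeast-glucose medium, with males and females in equal number in each bottle. The CTRL flies received DMSO and the PD flies 250 µM rotenone in DMSO for 7 days, and both were collected on day 7, at an age of 14 days after eclosion. The other groups were collected on day 14, 21 days after eclosion, after 7 further days: CWFP (control *Drosophila* given FMT from PD flies), CWOFP (control flies without FMT), PWFC (PD flies given FMT from control flies), and PWOFC (PD flies without FMT). Each group had 3 libraries of poly(A) RNA of whole flies, and the number of flies in a library is not given for these groups in the sources used here. The paper calls the libraries of a group biological replicates without naming the cultures they came from, and p-values measure the spread between these libraries. FMT was given in the food as the gut content obtained from ground flies, and the flies without FMT stayed on plain medium with no mock transfer described. The treatment protocol in the labels names this dose for every library, also for those of flies fed DMSO.

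The insect cuticle is a layered material of chitin fibers and proteins, secreted by the epidermis and by the lining of the trachea, foregut, and hindgut. Proteins of the *Cpr* family carry the Rebers and Riddiford consensus, a stretch that binds chitin, and different members are used in soft and in hard cuticle. In *Drosophila* most of them are made in bursts around the molts, in the embryo, the larva, and the pupa, whereas an adult fly no longer molts. No individual role beyond that of the family is given here for single *Cpr* genes. The chitin they bind is made by the chitin synthase encoded by *kkv* and is remodeled at molts by chitinases such as *Cht5*.

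Library totals lay between 17920498 and 29165130 counts, with a median of 21859942, so that 1 count was worth between 0.0343 and 0.0558 CPM, the count scaled to the library total. A member without a count in a library could therefore still be present at up to 0.103 to 0.167 CPM, the value of 3 counts, a limit that covers counting error only. The levels below are CPM scaled by the trimmed mean of M-values (TMM) unless raw counts are named. The markers chosen for whole flies, *ninaE* of the eye, *nSyb* of neurons, *Act88F* of flight muscle, *Yp1* of fat body and ovary, *bol* of testis, *Hml* of hemocytes, and *Jon99Ci* of the gut, were counted in every library. Their levels differed between libraries, and *ninaE* went from 1053 counts in CWOFP replicate 3 to 79470 in PD replicate 1. The summed level of 16 genes of the male accessory gland and testis was 61.5 CPM in CWFP replicate 1, against 394 to 2049 CPM in the other libraries. CWFP replicate 1 enters every CWFP value below, and the part of this difference in the levels of the *Cpr* genes was not tested. In RNA of whole flies, fewer cells of a type and less RNA per cell cannot be told apart.

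The 58 members differed widely in abundance. A total of 40 members had at least 100 counts over the 18 libraries, 13 had at least 1000, and 28 had a count in all 18 libraries. Just inside the minimum were *Cpr72Ea* with 11 counts and *Cpr72Eb* with 13, and just outside it were *Cpr30F* and *Cpr67Fa1* with 9 counts each and *Cpr5C* with 8. Of the 12 genes under the minimum, *Cpr57A*, *Cpr65Ax1*, and *Cpr67Fb* had no count in any library. The members lie on 5 chromosome arms, with 28 on 3L, 19 on 2R, 5 on 3R, 4 on 2L, and 2 on X, and 40 of them share a cytological band with another member. The bands 47E and 49A hold 7 members each. *Cpr73D* overlaps exons of *Ogdh*, and *Cpr47Ea* exons of *Or47a*, on the opposite strand. How strand and reads that match several genes were treated is not given in the sources used here, and therefore the counts of these genes and of the like-named neighbors *Cpr65Ax1* and *Cpr65Ax2*, and *Cpr67Fa1* and *Cpr67Fa2*, are uncertain.

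The most abundant members made up most of the family's RNA. *Cpr67B* (chr3L:9404797-9406174, dm6) had a mean level per length of 40.5 CPM per kb over the 18 libraries, *Cpr49Ab* (chr2R:12378440-12379396) 36.4 CPM per kb, and *Cpr49Ae* (chr2R:12402216-12405108) 12.4 CPM per kb. These 3 genes held 55.3% of all counts on members. They were followed by *Cpr51A*, *Cpr100A*, *Cpr66D*, *Cpr62Bb*, *Cpr97Eb*, *Cpr62Ba*, *Cpr47Ef*, *Cpr47Eg*, and *Cpr47Ee*, with mean levels per length from 7.33 down to 1.78 CPM per kb. The order of *Cpr100A*, *Cpr97Eb*, and *Cpr47Eg* in this row rested on single libraries, since their median levels per length were 0.611, 1.49, and 0.200 CPM per kb.

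*Cpr67B* was at 34.7, 54.1, and 32.1 CPM in the CTRL libraries and at 66.5, 60.8, and 63.1 CPM in the PD libraries. On day 14 its group means were 33.1 ± 12.2 CPM in CWOFP, 33.3 ± 12.7 in CWFP, 39.4 ± 9.52 in PWOFC, and 36.0 ± 5.26 in PWFC flies (SD, n = 3). The PD libraries were thus the 3 highest of the 18 for this gene, and the ranges of the other 5 groups overlapped. *Cpr49Ab* ran the other way, with 33.8, 43.3, and 39.0 CPM in CTRL and 28.0, 26.0, and 14.4 CPM in PD libraries. It was at 15.1, 14.7, and 20.5 CPM in the CWOFP libraries, and the CTRL libraries overlapped with neither group. Of the FMT groups, CWFP held 21.7 to 50.0 CPM of *Cpr49Ab* and PWFC 23.7 to 51.6 CPM, ranges wider than those of the groups without FMT.

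**Figure D1:**
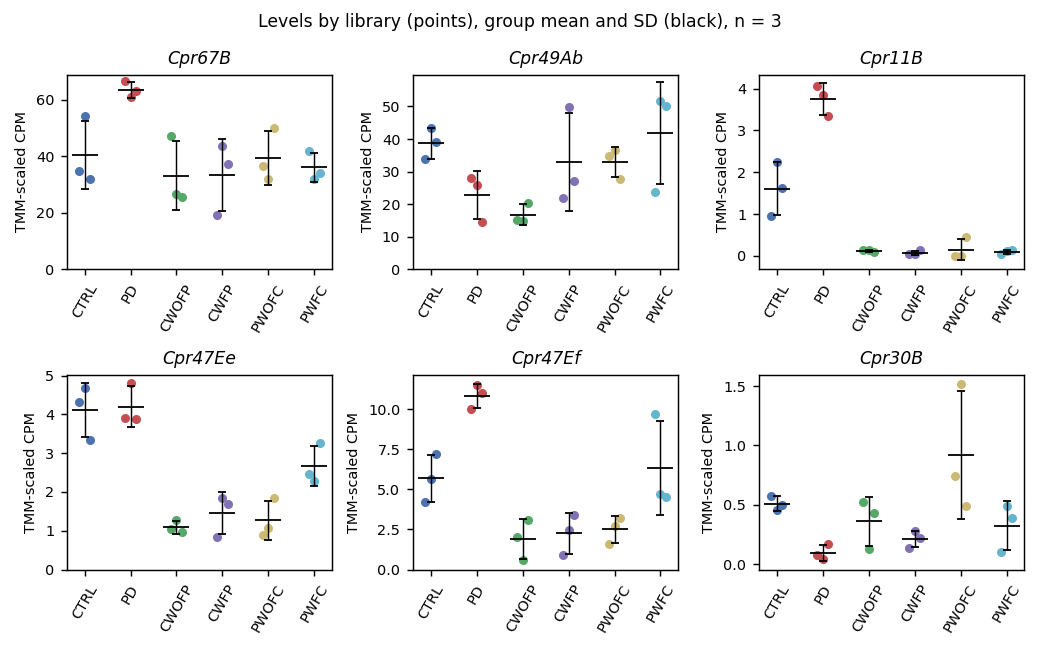
Levels of 6 *Cpr* genes in TMM-scaled CPM (y axis) by group (x axis), with a colored point for each library and the group mean and SD in black (n = 3). The PD libraries of *Cpr67B* lie between 60.8 and 66.5 CPM, above every other library, and *Cpr11B* is at or below 0.447 CPM in all libraries of day 14.

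The sum over the family had a wider range in the CWOFP group than in any other group. Over all members this sum was 199.2 CPM in CWOFP replicate 1, 80.9 CPM in replicate 2, and 366.6 CPM in replicate 3, whereas the other groups held 130 to 185 CPM (CTRL), 164 to 204 CPM (PD), 69.4 to 157 CPM (CWFP), 111 to 127 CPM (PWOFC), and 143 to 147 CPM (PWFC). CWOFP replicate 3 was the highest library of all, and CWOFP replicate 2 the lowest but one. The next question was which library held the peak, the highest CPM, of each gene.

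CWOFP replicate 1 held the peak of 19 of the 58 members, against 6.12% of all 15260 genes with at least 10 counts. CWOFP replicate 3 held the peak of 12 members, against 3.81% of all genes, and CWOFP replicate 2 of none, against 1.21%. The PD group followed with 13 members (22.8% of all genes), of which 7 peaked in replicate 1, 5 in replicate 2, and 1 in replicate 3 (10.8%, 6.31%, and 5.66% of all genes). The CWFP group, in which 38.5% of all genes peaked, held 7 members. CTRL and PWFC held 3 each (6.64% and 12.3% of all genes), and PWOFC held 1 (8.53%). The minimum of 10 counts was a sum over the 18 libraries, so a gene can pass it only through the library of its peak. For CWOFP replicate 1 this held for *Cpr35B*, *Cpr49Af*, *Cpr65Av*, *Cpr65Ax2*, *Cpr65Ea*, *Cpr65Ec*, and *Cpr76Ba*, and for replicate 3 for *Cpr64Aa*. The peaks of these members were thus fixed by the rule.

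**Figure D2:**
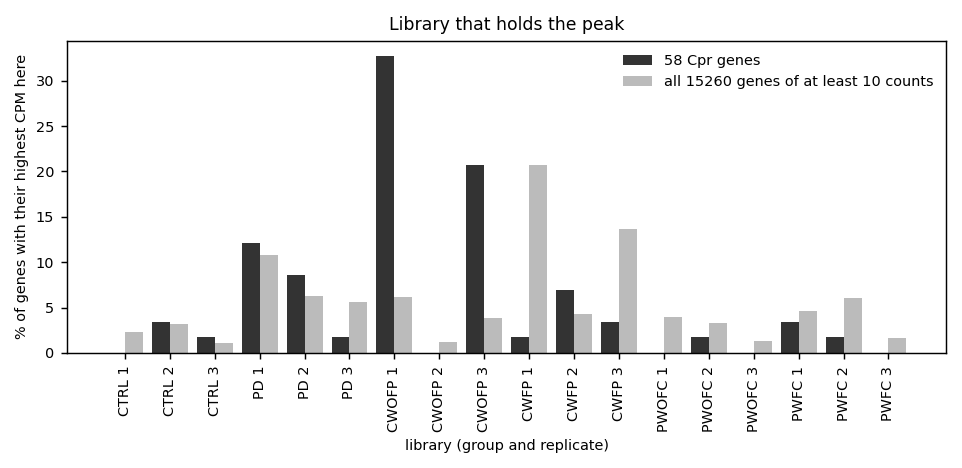
Share of genes (y axis, percent) that have their highest CPM in each library (x axis), for the 58 *Cpr* genes in black and for all 15260 genes with at least 10 counts in gray. CWOFP replicates 1 and 3 hold 19 and 12 members, and CWFP replicate 1 holds the peak of 20.7% of all genes but of 1 member.

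For 15 members the peak stood alone, with at least 20 counts and at least 5 times the CPM of the next library. Such a peak was found in 0.911% of all genes. Of the 15 members, 11 had it in CWOFP replicate 1 (0.537% of all genes) and 4 in CWOFP replicate 3 (0.183%), and no member had it in any of the other 16 libraries. The limit given above, on members that passed the minimum only through the library of their peak, holds here too. The members of each set are described by their raw counts, since most of the other libraries held few reads or none.

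In CWOFP replicate 1, *Cpr47Eg* (chr2R:11277957-11278445) had 322 counts and between 0 and 6 in each of the other libraries. *Cpr65Ea* had 164 counts there and at most 2 elsewhere, and *Cpr78Cc* had 167 and at most 14 elsewhere. All 3 were thus near the floor in most flies and well counted in a single library. *Cpr64Ad* had 155 counts and *Cpr31A* 154, with at most 25 and 28 in any other library, and *Cpr11A* had 93, with at most 8 elsewhere. The lower ones were *Cpr78Cb* with 65 counts, *Cpr65Av* with 59, *Cpr65Ec* with 43, *Cpr49Af* with 42, and *Cpr65Ax2* with 23. *Cpr65Ax2* had no count in the other 17 libraries.

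In CWOFP replicate 3, *Cpr100A* (chr3R:30867521-30869184) reached 3178 counts, or 138 CPM, the highest level of any member in any library. It had 102 counts in CWOFP replicate 1, 2 in CWOFP replicate 2, and between 4 and 54 in the libraries of the other groups. The others of this set were *Cpr97Eb*, with 900 counts there and 11 to 94 elsewhere, *Cpr97Ea*, with 639 counts there and at most 14 elsewhere, and *Cpr64Aa*, with 215 counts there and at most 2 elsewhere. By its definition a peak stands alone in 1 library only, so these 4 genes could not be in the set of CWOFP replicate 1. CWOFP replicate 1 was the second highest library for *Cpr100A* (4.45 CPM) and *Cpr97Ea* (0.610 CPM), but not for *Cpr97Eb* and *Cpr64Aa*.

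Among members without a peak that stood alone, *Cpr62Bc* and *Cpr92F* were high in both libraries. *Cpr62Bc* had 246 counts in CWOFP replicate 1 and 301 in CWOFP replicate 3, but 5 in CWOFP replicate 2 and between 4 and 35 in the other groups. *Cpr92F* had 67 and 41 counts in replicates 1 and 3, 3 in replicate 2, and at most 8 in the other groups. *Cpr67Fa2* had 50 and 11 counts against 4, with 0 to 17 in the other groups, and *Cpr49Ag* had 62 and 17 against 2, with 0 to 24 in the other groups. In all 4 genes CWOFP replicate 2 lay no higher than the other groups and replicate 1 above them, but replicate 3 lay above them only in *Cpr62Bc* and *Cpr92F*.

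**Figure D3:**
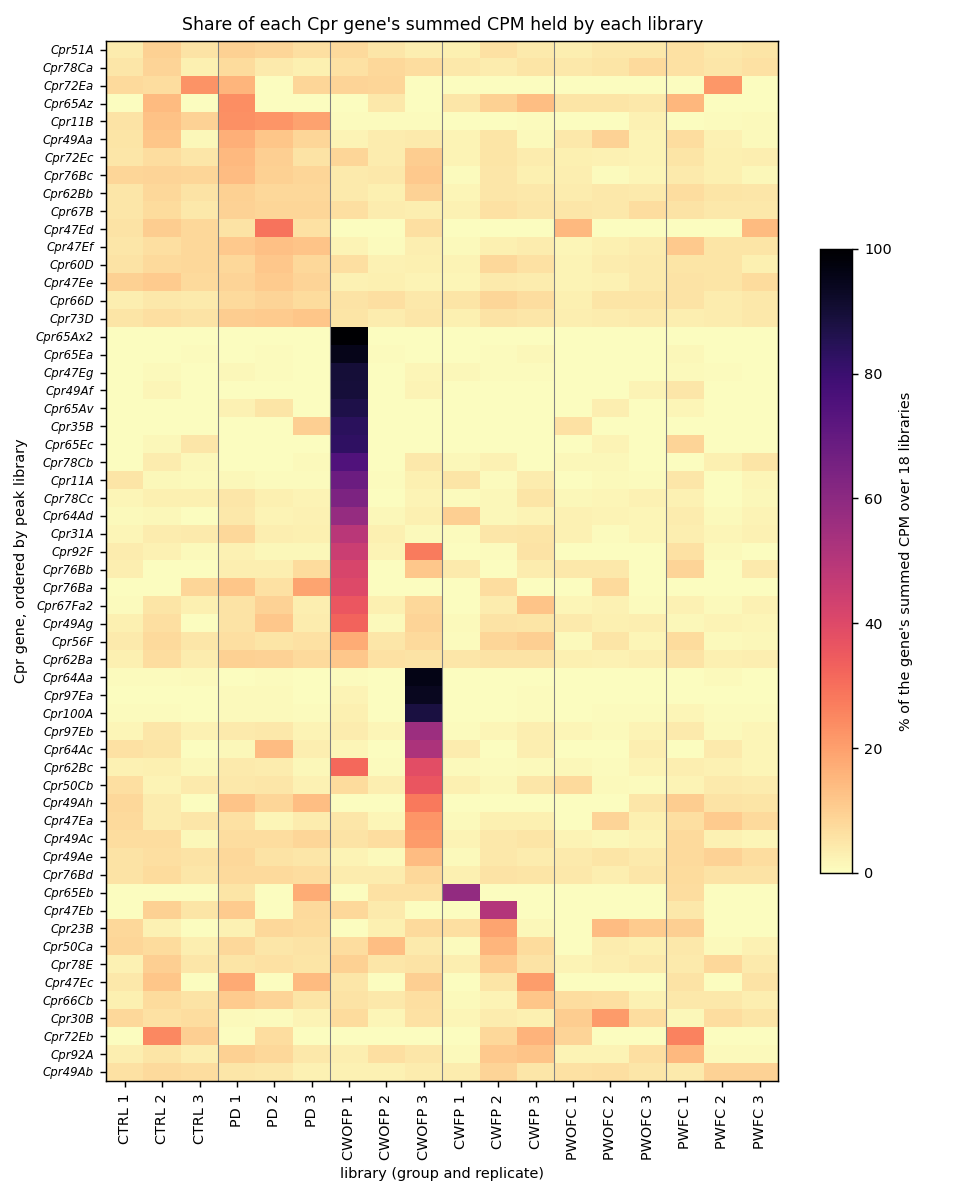
Share of each gene's summed CPM (color, percent) that each library holds (columns), for the 58 *Cpr* genes (rows), ordered by the library of the peak. The darkest blocks, genes with 1 dominant library, lie in the columns of CWOFP replicates 1 and 3, and *Cpr65Ax2* has all of its reads in CWOFP replicate 1.

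In most bands the neighbors did not all peak in the same library, although several bands held members with a shared peak library. Of the 11 bands with more than 1 member, 97E alone had all of its members (*Cpr97Ea* and *Cpr97Eb*) peak in the same library. In band 64A, *Cpr64Ad* peaked in CWOFP replicate 1 and *Cpr64Aa* and *Cpr64Ac* in CWOFP replicate 3. In band 47E, *Cpr47Eg* peaked in CWOFP replicate 1, *Cpr47Ea* in CWOFP replicate 3, and *Cpr47Ed*, *Cpr47Ee*, and *Cpr47Ef* in PD replicate 2. The 7 members of band 47E peaked in 5 libraries, and the 7 of band 49A in 4. Several of these peaks rested on few counts, such as 2 for *Cpr72Ea*, 3 for *Cpr72Eb*, 4 for *Cpr47Ec*, and 5 for *Cpr47Ed*. For such members the library of the peak is uncertain, and a difference between neighbors cannot be read from it.

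Other cuticle genes were also high in these 2 libraries, but those of the Rebers and Riddiford family mainly in CWOFP replicate 1. The summed level of these other family genes was 78.0 CPM in replicate 1 and 18.7 CPM in replicate 3, against at most 9.69 CPM in the other libraries. Of them, 7 had a peak that stood alone in replicate 1 and 0 in replicate 3. Of 19 other genes of the Rebers and Riddiford family with at least 10 counts, mostly *Lcp* and *Ccp84A* genes, 9 peaked in CWOFP replicate 1 and 3 in replicate 3. *Lcp65Ag2* had 516 counts in CWOFP replicate 1 and at most 10 elsewhere, and *Acp65Aa*, an adult cuticle protein, had 235 counts in replicate 3 and at most 48 elsewhere. Of 32 cuticle genes of other families, 19 peaked in CWOFP replicate 1 and 8 in replicate 3. Among them *TwdlM*, of the Tweedle family of cuticle proteins, had 2219 counts in CWOFP replicate 1 and at most 4 elsewhere. *Vajk3* had 787 and 1624 counts in replicates 1 and 3, and at most 26 elsewhere. Together with the members, these lists held 28 of the 82 genes with a peak that stood alone in CWOFP replicate 1 (34.1%) and 5 of the 28 in CWOFP replicate 3 (17.9%). These genes outside the *Cpr* family were named after their values were seen.

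Some genes of the larva and pupa were high in CWOFP replicate 3 but not in replicate 1, and others were high in neither. *Fbp1*, the receptor by which the fat body takes up larval serum proteins, had 979 counts in replicate 3 and at most 3 elsewhere. *Lsp1gamma*, a larval serum protein, had 552 counts there and at most 35 elsewhere. By contrast, *Lsp1beta* had 483 counts there, fewer than in CTRL replicates 1 and 3. *Eig71Eb* and *Eig71Ef* peaked in PD replicate 2, with 8 and 7 counts, and *Sgs3*, *Sgs4*, *Sgs5*, and *Sgs7* had at most 2 counts in any library. Of the tanning and chitin synthesis genes, a separate list, *kkv*, the chitin synthase, had 847 counts in replicate 3 and at most 122 elsewhere. The chitinase *Cht5* had 949 counts in replicate 3, 197 in replicate 1, and at most 109 elsewhere. Of 11 larva and pupa genes with at least 10 counts, 6 peaked in CWOFP replicate 3 and 1 in CWOFP replicate 1. The summed level of that list was 109 CPM in its highest CWOFP library, and up to 77.9 CPM in CTRL libraries, where *Lsp1beta* gave most of the counts (1997, 480, and 1334), 77.1 CPM in PWFC libraries, and 36.2 CPM in PWOFC libraries. The ecdysone response genes had 1 of 15 peaks in CWOFP replicate 1 and none in replicate 3, the tanning and chitin synthesis genes 1 and 5 of 14, the early zygotic genes 0 and 2 of 15, and the 5 tracheal genes 0 and 1. The eggshell, yolk protein, male accessory gland and testis, and hemocyte lists had no peak in either library. Of 7 markers of adult tissues, 1 peaked in CWOFP replicate 3, the flight muscle actin *Act88F*, with 5268 counts there, 2665 in replicate 1, 488 in replicate 2, and at most 3669 in the other groups. The part of these genes in the levels of the *Cpr* genes was not tested.

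**Figure D4:**
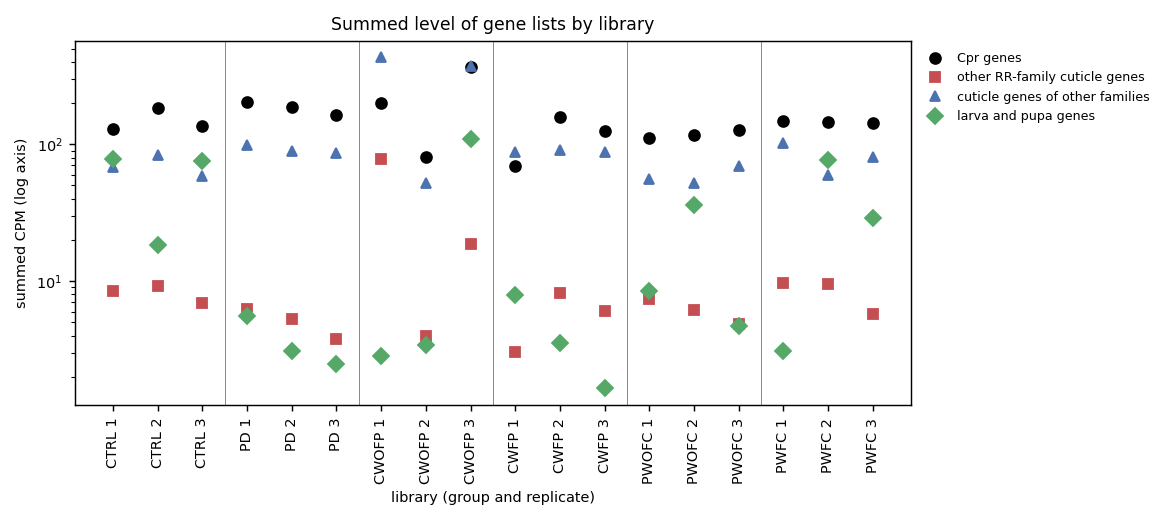
Summed CPM (y axis, log scale) of the *Cpr* genes and of 3 other gene lists in each of the 18 libraries (x axis). CWOFP replicate 1 is the highest library for both other cuticle lists, and CWOFP replicate 3 is the highest or second highest for all 4 lists.

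Since these 2 libraries hold 31 of the 58 peaks (9.93% of all genes), the peaks were found again without them, a choice made after the data were seen. The PD group then held the peak of 26 members (44.8%, against 26.2% of all genes), PWFC and CWFP of 12 each (20.7%, against 13.7% and 40.9%), CTRL of 6 (10.3%, against 7.79%), and PWOFC of 2 (3.45%, against 9.59%). The 6 of CTRL include *Cpr65Ax2*, which had no count in these libraries and was placed there by the order of the libraries alone. All genes were counted in the same way. CWOFP replicate 2 held none (1.82% of all genes). Of the 31 members that had peaked in CWOFP replicates 1 and 3, 13 now peaked in a PD library. Some of these peaks rested on few counts, such as 2 for *Cpr35B* and 3 for *Cpr76Ba* in PD replicate 3 and 4 for *Cpr65Av* in PD replicate 2. The library of such a peak is uncertain. Results that involve the CWOFP group are given below with and without the 2 libraries, and in the second case CWOFP replicate 2 stood alone and was assumed to vary like the other groups, in a single fit of 16 libraries.

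Each comparison was tested by the quasi-likelihood test of edgeR, and a differentially expressed transcript (DET) had a Benjamini-Hochberg adjusted p under 0.05, taken over all genes tested, with a log2 fold change above 1 in size. The filter on low counts left between 19 and 30 members in a comparison of 2 groups. A member can pass it through the group where it is high, so the counts and medians below describe the members tested and not the family. The filter was applied anew in the fits with CWOFP replicate 2 alone, so their medians may cover other members.

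The comparison of PD with CTRL flies asked what rotenone changed by day 7. Of 30 members tested, 24 had a higher and 6 a lower fitted level in PD flies, and the median of their log2 fold changes was 0.44, against 0.05 over all genes tested. A single member was a DET, lower in PD flies, against 2.25% of all genes (1.16% lower). This was *Cpr30B* (chr2L:9542878-9543658), with 15, 13, and 9 counts in the CTRL and 2, 1, and 4 counts in the PD libraries. The groups did not overlap, and the summed counts of 37 and 7 gave a CTRL to PD ratio of 5.46 with an exact 95% interval from 2.40 to 14.5 for counting error. *Cpr30B* was lower in PD flies by a log2 fold change of -2.39 ± 0.54 (SE, adjusted p = 0.0493 by edgeR). DESeq2 gave it no adjusted p because of its low counts. Leaving out any library other than CTRL replicate 2 ended this call, with adjusted p from 0.051 to 0.208, and without CTRL replicate 2 there were 7 DETs among the members.

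*Cpr73D*, *Cpr66D*, and *Cpr11B* were higher in PD flies at about the limits of the definition of a DET. *Cpr66D* was at 2.81, 3.78, and 3.56 CPM in CTRL and at 6.21 to 7.24 CPM in PD libraries. Its log2 fold change was 0.98 ± 0.21 (SE, adjusted p = 0.0433 by edgeR), just under the fold required. *Cpr73D*, which overlaps *Ogdh*, was at 4.77 to 5.95 CPM in CTRL and 9.48 to 10.8 CPM in PD libraries, with a log2 fold change of 0.91 ± 0.18 (adjusted p = 0.0396 by edgeR). *Cpr11B* (chrX:12553124-12554235) had 25, 64, and 29 counts in CTRL and 105, 97, and 80 counts in PD libraries. Its log2 fold change was 1.22 ± 0.32 (SE, adjusted p = 0.0519 by edgeR), and DESeq2 called it (adjusted p = 0.00919), as the only member, against 4.23% of all genes. In all 3 genes each PD library lay above each CTRL library. *Cpr47Ef*, with 5.68 ± 1.49 CPM in CTRL and 10.8 ± 0.756 CPM in PD flies (SD, n = 3), was likewise separated (adjusted p = 0.0501 by edgeR), as were *Cpr67B*, *Cpr62Ba*, and *Cpr62Bb* with adjusted p of 0.0699, 0.0793, and 0.17 by edgeR.

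In all, 7 of the 30 members lay higher in every PD library (23.3%, against 20.7% of all genes tested) and 2 lower (*Cpr30B* and *Cpr49Ab*, 6.67%, against 18.3%), so that the share of separated higher members was near that of all genes. Beside these values, the summed level of 14 eggshell genes was 1861 to 1975 CPM in PD and 8929 to 16256 CPM in CTRL libraries, with 6 of them DETs lower in PD flies, and all 3 yolk protein genes were DETs lower in PD flies. The part of this difference in the levels of the *Cpr* genes was not tested.

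The comparison of CWOFP with CTRL flies set control flies of day 14 against those of day 7, so that age, the change of medium, and the day of collection cannot be told apart. There were 3 DETs among the 29 members tested, all lower in CWOFP flies, against 1.86% of all genes tested (1.83% lower). *Cpr11B* had 3, 3, and 2 counts in the CWOFP libraries against 25, 64, and 29 in CTRL, a ratio of 14.1 with an exact 95% interval from 6.92 to 33.4 for counting error. The fitted log2 fold change was -3.68 ± 0.51 (SE, adjusted p = 0.0139 by edgeR). *Cpr47Ee* (chr2R:11265126-11266856) was at 4.31, 4.69, and 3.34 CPM in CTRL and 1.05, 1.28, and 0.957 CPM in CWOFP libraries (log2 fold change -1.85 ± 0.30, adjusted p = 0.0245 by edgeR). *Cpr49Ab*, with the values given above, had a log2 fold change of -1.15 ± 0.19 (adjusted p = 0.0244 by edgeR). The groups did not overlap for any of the 3 genes, nor for *Cpr47Ef*, so that 4 members were lower in every CWOFP library (13.8%, against 13.6% of all genes tested) and none was higher (5.13%).

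These 3 members did not have their peaks in the CWOFP libraries, and they were low in all 3 of them. With CWOFP replicate 2 alone, the log2 fold changes were -3.59 for *Cpr11B*, -1.68 for *Cpr47Ee*, and -1.40 for *Cpr49Ab*, and none was a DET (adjusted p of 0.599, 0.371, and 0.556 by edgeR). The median over the members tested was 0.26 with all libraries and -0.60 with CWOFP replicate 2 alone, against medians over all genes of 0.00 and -0.05. *Cpr100A* had the highest fitted value, 5.83 ± 2.23 (SE), from its counts in CWOFP replicate 3, and was not a DET (adjusted p = 0.393 by edgeR). Without CTRL replicate 2 none of the 3 was a DET, with adjusted p of 0.0547, 0.0806, and 0.0738, and the same held without CTRL replicate 3, while 1 of them remained without CTRL replicate 1 and 1 without CWOFP replicate 3. DESeq2 called the same 3 and also *Cpr92F*, which the filter of edgeR had left out, at a log2 fold change of 3.44, against 3.27% of all genes. Of the 7 markers of whole-fly tissues, *Jon99Ci*, *nSyb*, and *Hml* were DETs lower in CWOFP than in CTRL flies, and the 7 summed to 1850 to 3128 CPM in CWOFP and 5587 to 7697 CPM in CTRL libraries. The eye marker *ninaE* had 40037, 51376, and 25912 counts in CTRL and 6632, 1469, and 1053 in CWOFP libraries. The part of these markers in the lower levels of the 3 *Cpr* genes was not tested.

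*Cpr11B* was low in every group of day 14. It had at most 3 counts in each library of CWFP and PWFC, and 0, 0, and 10 counts in the PWOFC libraries. The rotenone-fed flies went from a sum of 282 counts in PD to 10 in PWOFC, a ratio of 24.3 with an exact 95% interval from 13.05 to 51.3 for counting error, with no test over libraries made for this pair. *Cpr47Ee* was at 0.834 to 1.84 CPM in CWFP, 0.896 to 1.83 CPM in PWOFC, and 2.28 to 3.26 CPM in PWFC libraries, all below the lowest library of day 7 (3.34 CPM). *Cpr47Ef* was at or below 3.43 CPM in CWOFP, CWFP, and PWOFC libraries and at 9.69, 4.73, and 4.53 CPM in PWFC libraries, of which only the first was above the CTRL range.

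The comparison of PWOFC with CWOFP flies asked whether a past rotenone diet still left a difference 7 days after it ended. None of 25 members tested was a DET by edgeR, against 0.0325% of all genes, although 9 had an unadjusted p under 0.05, as did 25.2% of all genes. DESeq2 called 7 members, all lower in PWOFC flies, against 3.15% of all genes: *Cpr31A*, *Cpr49Ac*, *Cpr62Ba*, *Cpr62Bc*, *Cpr67Fa2*, *Cpr72Ec*, and *Cpr92F*. *Cpr62Ba* was at 6.32, 3.20, and 3.09 CPM in CWOFP and 1.54, 1.37, and 1.88 CPM in PWOFC libraries, and its groups did not overlap, nor did those of *Cpr49Ac* and *Cpr72Ec*. *Cpr31A*, by contrast, had 154, 10, and 3 counts in CWOFP libraries and 7, 2, and 5 in PWOFC libraries, so that its fold rested on 1 library. *Cpr67Fa2* had 50, 4, and 11 counts in CWOFP and 2, 3, and 1 in PWOFC libraries. *Cpr62Bc* and *Cpr92F* were high in CWOFP replicates 1 and 3 but not in replicate 2. The filter of edgeR left out *Cpr31A*, *Cpr67Fa2*, and *Cpr92F*, so that edgeR gave no result for them. In all, 5 members were lower in every PWOFC library (20%, against 10.1% of all genes) and 1 was higher, *Cpr49Ab* (4%, against 28.2%), at 34.6, 36.6, and 27.6 CPM against 15.1, 14.7, and 20.5 CPM (adjusted p = 0.12 by edgeR and 0.00063 by DESeq2, whose log2 fold change of 0.88 was under that required of a DET). The median log2 fold change of the members tested was -0.51, and 0.05 with CWOFP replicate 2 alone. Without CWOFP replicate 2, edgeR called *Cpr62Bc*.

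Whether the effect of rotenone differed between day 7 and day 14 was tested as an interaction over CTRL, PD, CWOFP, and PWOFC libraries. Of 31 members tested, 10 passed (32.3%), against 22.4% of all genes, and DESeq2 called 16, against 20.5%. In 8 of them the effect was lower on day 14, and in *Cpr30B* and *Cpr49Ab* it was higher. *Cpr49Ab* had a difference of 1.74 ± 0.33 on the log2 scale (SE, adjusted p = 0.00736 by edgeR), as it was lower with rotenone on day 7 and higher on day 14. *Cpr30B* had a difference of 3.71 ± 0.87 (adjusted p = 0.0117), with 2, 1, and 4 counts in PD and 15, 30, and 11 counts in PWOFC libraries, against 12, 3, and 10 counts in CWOFP libraries. *Cpr62Ba*, at 1.65, 3.81, and 2.00 CPM in CTRL and 5.22, 4.97, and 4.13 CPM in PD libraries, was higher with rotenone on day 7 and lower on day 14, with a difference of -2.32 ± 0.52 (adjusted p = 0.0103). The other 7 members were *Cpr49Ac*, *Cpr62Bc*, *Cpr66D*, *Cpr67Fa2*, *Cpr72Ec*, *Cpr73D*, and *Cpr76Bc*, with differences from -4.57 to -1.23. The median over the members tested was -1.23, against -0.01 over all genes. The count was 5 without PD replicate 1 and 19 without CWOFP replicate 2, beside 1170 and 2623 of all genes in those fits and 2871 with every library. With CWOFP replicate 2 as the only CWOFP library, 5 members passed, the median was -0.37, and *Cpr62Bc* turned from -4.57 to 0.64.

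The comparisons of CWFP with CWOFP and of PWFC with PWOFC flies asked what FMT changed in control and in PD flies. CWFP, PWOFC, and CTRL flies were all compared with the same CWOFP libraries, and PWFC and CWOFP with the same PWOFC libraries, so these comparisons are not independent. No member was a DET by edgeR among 26 tested for CWFP and CWOFP (1 with an unadjusted p under 0.05, against 2.16% of all genes) or among 19 tested for PWFC and PWOFC (3 with an unadjusted p under 0.05, against 4.12% of all genes), and no gene of the whole table was (0.0%). DESeq2 called *Cpr62Bc*, at -4.95, in the first (0.314% of all genes) and none in the second (0.521%). The filter of edgeR had left *Cpr62Bc* out of the first, where the gene had 246, 5, and 301 counts in CWOFP and 6, 4, and 7 in CWFP libraries.

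In control flies the median log2 fold change of the members tested with FMT was -0.47. With CWOFP replicate 2 alone the median was 0.34, over the members that passed the filter in that fit. Separated groups were found for *Cpr49Ab*, higher with FMT (1 of 26 members, 3.85%, against 4.73% of all genes), and for *Cpr49Ac* and *Cpr78Ca*, lower with FMT (7.69%, against 2.28%). In PD flies the median was 0.41 against -0.04 over all genes. A total of 6 of the 19 members were higher in every PWFC library (31.6%, against 6.5% of all genes): *Cpr47Ee*, *Cpr47Ef*, *Cpr49Ae*, *Cpr51A*, *Cpr62Bb*, and *Cpr76Bd*. *Cpr49Ae* was at 19.97, 24.1, and 17.8 CPM in PWFC and at 11.3, 13.5, and 11.1 CPM in PWOFC libraries, a log2 fold change of 0.79 ± 0.18 (SE, adjusted p = 0.471 by edgeR). *Cpr47Ee* had a log2 fold change of 1.07 ± 0.41 and *Cpr47Ef* of 1.33 ± 0.46, both with an adjusted p of 0.993 by edgeR. *Cpr30B* was lower in every PWFC library (5.26%, against 2.3%), with 2, 9, and 8 counts against 15, 30, and 11. None of these 7 genes was a DET by either tool, and none passed the adjustment by edgeR, whereas *Cpr49Ae* had an adjusted p of 0.0225 by DESeq2 at a log2 fold change of 0.80, under that required of a DET. The difference between the effects of FMT in PD and in control flies passed for none of 28 members (0.0% of all genes by edgeR, with 5 members and 2.38% of all genes at an unadjusted p under 0.05, and no member by DESeq2, against 0.0062% of all genes).

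**Figure D5:**
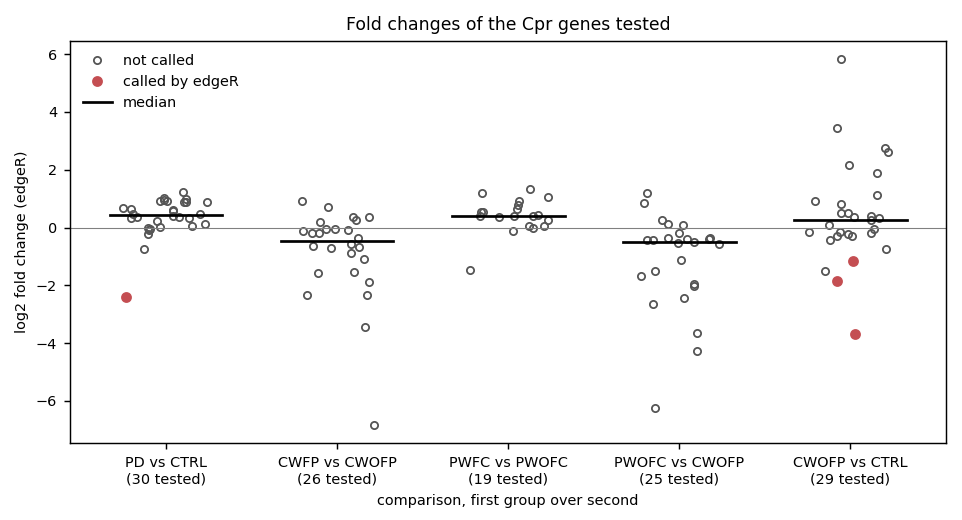
Log2 fold change by edgeR (y axis) of the *Cpr* genes tested in each comparison (x axis, first group over second), with DETs in red, other genes as open circles, and the median as a black bar. The medians are 0.44, -0.47, 0.41, -0.51, and 0.26 from left to right, and *Cpr100A*, with its peak in CWOFP replicate 3, is the lowest point for CWFP and for PWOFC against CWOFP and the highest for CWOFP against CTRL.

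The other cuticle genes gave no DET in most comparisons of 2 groups. For the other Rebers and Riddiford genes, 3 or 4 genes were tested in all comparisons but PWFC with PWOFC flies, where 1 was, and a single one was a DET, lower in PD than in CTRL flies. For cuticle genes of other families, 13 to 16 were tested and none was a DET, with median log2 fold changes of 0.28 (PD and CTRL), -0.53 (CWFP and CWOFP), 0.37 (PWFC and PWOFC), -1.39 (PWOFC and CWOFP), and 1.22 (CWOFP and CTRL). Of the 13 genes of chitin synthesis and tanning tested, none was a DET in any comparison of 2 groups, and 3 passed the interaction of rotenone with the day, all with a lower effect on day 14, against 22.4% of all genes. In that interaction 4 of 18 cuticle genes of other families passed, all lower on day 14, and of 5 other Rebers and Riddiford genes 1 was higher and 1 lower.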

How the data were processed

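The data were 18 RNA-seq libraries of whole adult flies, 3 for each of 6 groups, and each library was placed in its group by its sample label. The labels list 24 samples, and the 6 given patient microbiota were not analysed here. The deposited values are raw read counts per gene, which the authors made with cutadapt, HISAT2 (genome dm6), and featureCounts, and did not normalize. The submitters' notes name StringTie 1.3.1 and DESeq2 1.36.0 as well. Gene symbols, positions, and exon lengths were taken from Ensembl (BDGP6.54, with dm6 coordinates), and 55 genes had no symbol.

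The tests ran in R 4.3.3 with edgeR 4.0.16 (on limma 3.58.1) as the main tool and DESeq2 1.42.0 as an alternative. Levels, peaks, and plots were made in Python 3.11.15 with NumPy 2.4.6, pandas 2.3.3, matplotlib 3.10.9, and SciPy 1.17.1. Each comparison was fitted on its own 6 libraries with filterByExpr, TMM scaling, and the robust quasi-likelihood test, and p-values were adjusted by Benjamini-Hochberg over all genes tested. Interactions used the libraries of the 4 groups involved. Levels per length were CPM divided by the length of all exons. The tests were tested on simulated data. Alternatives were other scalings, DESeq2, no filter, 1 fit of all 18 libraries, a replicate block, and leaving out each library. The members, the gene lists, and the tests were chosen with earlier results of these data known. Named members were the 12 with the highest mean CPM per kb, those called in any comparison or interaction by edgeR or DESeq2, the 10 with the largest ratio of highest to median library among those with at least 100 counts in the highest library, and those whose groups did not overlap at an absolute log2 fold change above 1. Other members are named by their peak or position, after their values were seen.

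All pairs of replicates differed beyond sampling noise. Libraries of CWFP and CWOFP with the same replicate number had correlations of 0.488, 0.256, and 0.354 between their deviations from the group means over genes. Libraries with different numbers reached at most 0.206 there, but up to 0.510 for PWFC with PWOFC and 0.468 for PD with CTRL. Values of this size thus cannot show that the numbers pair the libraries, and the labels name no pairing. The values given above for CWFP against CWOFP come from the fit without a replicate block. The block did not change the count of member DETs there.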

Additional observations from a re-analysis of the deposited data

Results flagged for a closer look

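The log2 effect of rotenone history differed between day 14 and day 7 in 10 members, by the interaction test of edgeR with Benjamini-Hochberg adjustment over all genes. The day 14 effect was lower in *Cpr62Bc* by -4.57, *Cpr67Fa2* by -4.26, *Cpr49Ac* by -3.02, *Cpr72Ec* by -2.46, *Cpr62Ba* by -2.32, *Cpr76Bc* by -2.06, *Cpr66D* by -1.26, and *Cpr73D* by -1.23, and higher in *Cpr49Ab* by 1.74 and *Cpr30B* by 3.71. The same test called 22.4% of all genes. For *Cpr62Bc* and *Cpr67Fa2* the CWOFP libraries ranged from 5 to 301 and from 4 to 50 counts, and without CWOFP replicate 1 *Cpr67Fa2* was at -2.74. The call was lost in 10 alternatives for *Cpr76Bc*, in 8 for *Cpr67Fa2*, and in 8 for *Cpr62Bc*, with a reversed direction in 1 more.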

How the results depend on the processing

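Of the members tested for PD against CTRL, 1 was a DET, and 5 under upper quartile scaling (where all genes had a median log2 fold change of 0.23 and the members of 0.62), 2 without the filter, 2 with the replicate block, and 0 in 1 fit of all 18 libraries. The number was 0 to 7 when 1 library was left out, with 7 without CTRL replicate 2. All genes tested gave 285 DETs, 25 in the fit of 18 libraries, 485 under upper quartile scaling, 674 by DESeq2, 468 without the filter, 532 with the block, and 39 to 1648 with 1 library left out. DESeq2 called 1 member for CWFP against CWOFP, 7 for PWOFC against CWOFP, and 16 in the interaction of rotenone with the day, against 0, 0, and 10 by edgeR. The filter of edgeR had left out some of these members. They were *Cpr62Bc* in the first, *Cpr31A*, *Cpr67Fa2*, and *Cpr92F* in the second, and *Cpr92F* and *Cpr97Ea* in the interaction. Leaving out 1 library gave 0 to 0 members for CWFP and for PWFC, 0 to 1 for PWOFC against CWOFP, 0 to 3 for CWOFP against CTRL, 5 to 19 in that interaction (5 without PD replicate 1, 19 without CWOFP replicate 2), and 0 to 1 in the interaction of FMT with rotenone history.

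The following was chosen after the data were seen. With CWOFP replicate 2 alone, no member was a DET for CWOFP against CTRL (19 genes of all, against 231), 5 passed in the interaction of rotenone with the day, and *Cpr62Bc* turned to 0.64 (adjusted p = 0.649 by edgeR). Among members with at least 100 counts, 11 of 40 peaked in CWOFP replicate 1 and 10 in replicate 3, and with both libraries left out 26 of 58 members peaked in a PD library, some of them on few counts. Raw totals, RLE, and upper quartile scaling left the counts of peaks in CWOFP replicates 1 and 3 within 1.5 times. In the comparisons other than CWFP with CWOFP, libraries with the same replicate number had correlations from -0.524 to 0.296. Apart from PD against CTRL, the replicate block changed no count of member DETs.

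Many members had fewer than 10 counts in a library, so that a change of a low member was often not detectable at this depth. In groups of 3 libraries, CWOFP replicates 1 and 3 set the CWOFP means of the members whose peak stood alone there, but not of every member that peaked there.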
